A study of Mus musculus with 10 samples.

Results

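The 10 genes described here are the insulin-like growth factors Igf1 and Igf2, the receptors Igf1r and Insr, and the IGF-binding protein genes Igfbp2, Igfbp3, Igfbp4, Igfbp5, Igfbp6 and Igfbp7. They were chosen by name, with earlier results of these data known, and each matched 1 of the 46517 Ensembl genes of the count tables. Their levels were followed in dermal lymphatic endothelial cells (LECs), in blood endothelial cells (BECs) and in the LECs with a high level of Ptx3, in mice with and without activation of mutant Pik3ca.

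IGF1 and IGF2 are secreted growth factors that bind the receptor tyrosine kinase IGF1R and, in the case of IGF2 and at lower affinity, the insulin receptor. Both receptors signal through insulin receptor substrates to phosphoinositide 3-kinase (PI3K), and Pik3ca encodes its catalytic subunit p110α. IGF-binding proteins hold the ligands in the extracellular space and can block or prolong their action, and IGFBP7, which binds IGFs weakly, is known as a protein of the vascular basement membrane.

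The mutant group held 5 Cre-positive Pik3caH1047R;Cdh5-CreERT2 mice, in which 4-hydroxytamoxifen (4-OHT) on the ears at 3 wk of age activated a Pik3ca transgene in the Rosa26 locus, with Cre under the pan-endothelial Cdh5 promoter. Control 1 was a C57BL/6J wild type that had received no 4-OHT, and control 2 a Cre-negative littermate that had, so the controls also differed in treatment. All mice were 5 wk old, and another control mouse was not analysed here. Single cells of the ear skin, sorted on Podoplanin and CD31, had been sequenced by Smart-Seq2, which reads along whole transcripts without molecular barcodes, on 9 plates of 384 wells (2 plates each for mutants 3 and 5). Mutants 1–4 came from 1 series of plate numbers and mutant 5 and both controls from the other, so that plate series and genotype can be told apart only through mutant 5.

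Of 3456 wells, 3248 passed the limits on reads, genes and mitochondrial reads. The labels name LECs as the cell type of every plate, but the plates held both kinds of endothelial cell. A cell was taken as an LEC when its summed counts per 1000000 reads (CPM) of Prox1, Flt4 and Mmrn1 were at least 300 and above those of Flt1, Emcn and Podxl, and as a BEC in the reverse case, which gave 1641 LECs and 1490 BECs. LECs numbered 183 and 175 in the controls and 184, 187, 363, 182 and 367 in mutants 1–5, and BECs 159 and 157 against 183, 184, 330, 174 and 303. Markers that were not used in this choice followed it: 6 other LEC genes summed to 4033–5194.2 CPM in LECs and 274.3–753.8 in BECs, and 6 other BEC genes to 6086.2–7366.7 CPM in BECs and 1277.2–2023 in LECs. Levels below are CPM of reads summed over the cells of a class in each mouse, from 38402388–194353210 reads per LEC or BEC sum.

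The controls also carried more fibroblast and mural RNA than the mutants, and its part in these results was not tested unless a value without such cells is given. The 6 fibroblast markers summed to 454.8 and 243 CPM in control LECs against 26.9–126.9 in mutant LECs, and to 972.4 and 734.9 CPM in control BECs against 17.6–70.2 in mutant BECs, and none of the 6 was under 1 CPM in every mouse. Mural cell markers summed to 920.1 and 505.1 CPM in control BECs and to 156.3–348.2 in mutant BECs, with 2 of the 6 genes higher in both controls, against 5 of 6 for the fibroblast list. Keratinocyte markers overlapped between the groups, at 203.1 and 396.5 CPM against 73.3–372.5 in LECs and 497.5 and 339.1 against 13.3–748.7 in BECs, as did immune and Schwann cell markers. Cells with at least 300 CPM of another type's markers made up 30.1% and 19.4% of control LECs against 12.5–19.8% of mutant LECs, and 71.7% and 45.2% of control BECs against 20.7–33% of mutant BECs. The 7 cell cycle genes of a marker list, in turn, summed to 58.2 and 87.6 CPM in control LECs and to 411.6–712.4 in mutant LECs, and to 13.6 and 34.6 CPM in control BECs and 104.9–465.7 in mutant BECs. Values without such cells are given beside the results whose call or direction they change, and beside others that they move far. Control 1 and mutants 3–5 were female and control 2 and mutants 1 and 2 male, as read from Xist and Y-linked genes.

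To compare levels between genes, CPM were divided by exon length (giving RPKM). Igfbp7 stood highest in both classes, with 306.8 ± 33.5 RPKM (SD, n = 2) in control LECs and 1910 ± 386.6 (n = 2) in control BECs. In control LECs Igfbp4 (197.9 ± 15.9), Igfbp5 (116.5 ± 53) and Igfbp3 (37.3 ± 10.1 RPKM) came next, each apart from its neighbour, and in control BECs Igfbp3 (162.3 ± 25.8) and Igfbp4 (75.9 ± 17.7 RPKM). The ligands were far below the leading binding proteins. Igf2 had 15.1 ± 1.25 RPKM in control LECs, within the range of Igfbp6, and Igf1 had 4.76 ± 0.0124, within the range of Igfbp2. The receptors had the lowest mean levels in control LECs, at 2.4 ± 1.84 RPKM for Igf1r and 2.19 ± 0.344 for Insr. Their ranges overlapped, and that of Igf1r (1.1–3.7 RPKM) also overlapped that of Igfbp2 (3.21–6.36). In control BECs the ranges of the 5 lowest, Igfbp2, Igf1r, Insr, Igfbp5 and Igf1, overlapped from each to the next, between 2.15 and 13.4 RPKM. In mutant mice the order of the leaders was Igfbp7, Igfbp4 and Igfbp5 in LECs, where the last pair overlapped, and Igfbp7, Igfbp4 and Igfbp3 in BECs, where the last pair overlapped too. Levels of the receptors depend on the gene models of the authors, whose exon length was 4489 bases for Igf1r and 9633 for Insr against 16791 and 13746 in GENCODE vM21. The removal of duplicate reads limits how many reads a short gene can hold in 1 cell, and its effect on Igfbp7, with 1209 exon bases and up to 1595 reads in 1 BEC, was not tested.

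**Figure D1:**
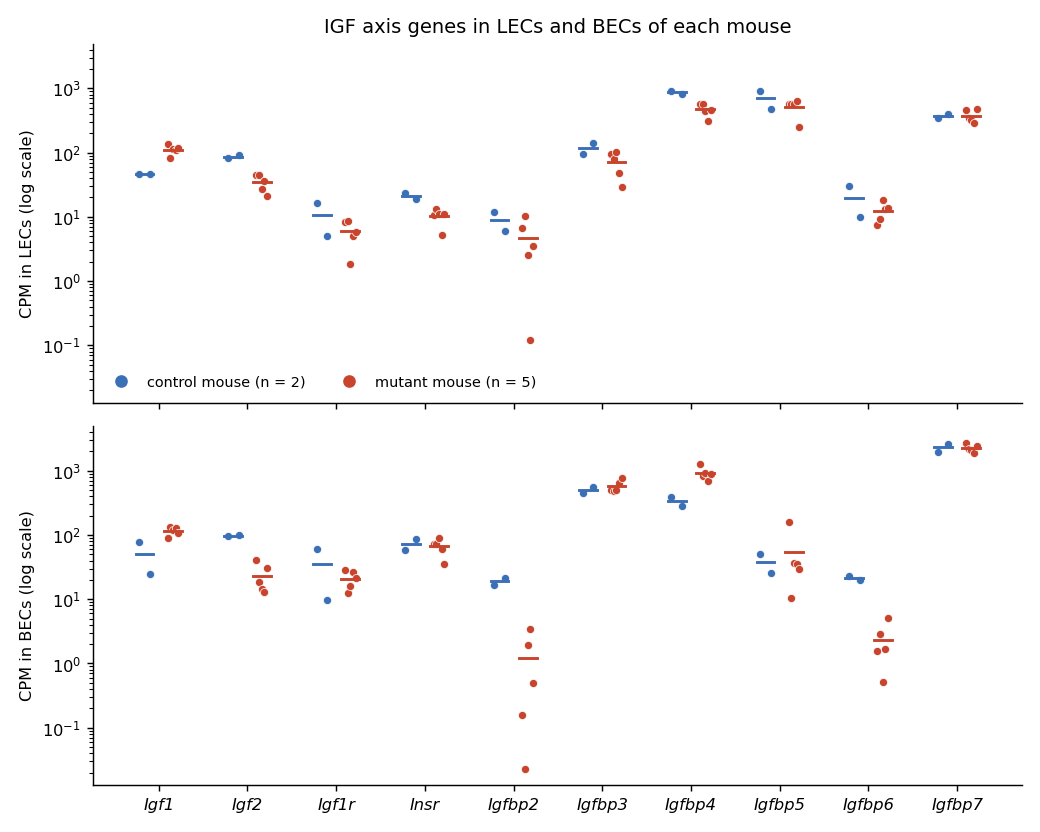
Level of the 10 genes in LECs (top) and BECs (bottom) of each mouse, in CPM on a log scale; each point is a mouse, blue for the 2 controls and red for the 5 mutants, and the bars mark group means. Igf1 of mutant mice lies above both controls in both classes, Igf2 lies below them in both, and Igfbp4 lies below them in LECs (315.1–577.9 CPM against 824 and 923.5) and above them in BECs (684.6–1284.3 against 280.2 and 390.6).

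Several binding proteins differed between the LECs and the BECs of the same mouse. In control mice 5 of the 10 genes were called (adjusted p under 0.05), where 10.4% of all 21933 genes tested were, and in mutant mice 7 of 10, where 19.2% were. Igfbp5, which binds IGFs and extracellular matrix, was 18.8-fold higher in control LECs (log2 fold change 4.23 ± 0.83 SE, adjusted p = 0.0157) and 13.5-fold higher in mutant LECs (3.75 ± 0.54, adjusted p = 0.00192). Its level was 924.4 and 474.4 CPM in control LECs and 50.7 and 25.5 in control BECs, and LECs were above BECs in 7 of 7 mice. Without cells with other types' markers the control difference was 5.88 (adjusted p = 0.00831). Igfbp7 was 6.05-fold lower in control LECs than BECs (-2.60 ± 0.12, adjusted p = 0.000119) and 6.15-fold lower in mutant LECs (-2.62 ± 0.08, adjusted p = 4.52e-06). Igfbp3, the main carrier of IGFs in plasma, was 4.31-fold lower in control LECs (-2.11 ± 0.55, adjusted p = 0.0481) and 8.81-fold lower in mutant LECs (-3.14 ± 0.37, adjusted p = 0.000698). Igfbp6, which prefers IGF2, was called only in mutant mice, at 2.59 ± 0.59 higher in LECs (adjusted p = 0.017). In control mice it had -0.28 ± 0.85 (adjusted p = 0.922), but 3.52 (adjusted p = 0.184) without cells with other types' markers. Its difference between genotypes was not called (2.87 ± 1.05, adjusted p = 0.35). The mutant call was lost without cells with other types' markers (2.81, adjusted p = 0.117), without cycling cells (2.09, adjusted p = 0.0827) and without mutant 4 (2.48, adjusted p = 0.0583). Igfbp2 was not called in control (-1.16 ± 2.08, adjusted p = 0.826) or mutant mice (2.68 ± 1.93, adjusted p = 0.413). In control mice the calls of Igfbp4 and Igfbp7 were kept whichever 1 of the 7 mice was left out. Those of Igfbp5 and Igfbp3 were lost without control 1 or control 2, at log2 changes of 4.22 and 4.26 for Igfbp5 and -2.02 and -2.19 for Igfbp3. Leaving out mutants 1, 2, 3 or 4, which share the estimate of the spread, also cost Igfbp3 its call (adjusted p = 0.0535 to 0.0633 at -2.11 to -2.15). Without cycling cells Igfbp3 had -1.94 (adjusted p = 0.0922).

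The receptors were lower in LECs than BECs. Insr had 23.4 and 18.7 CPM in control LECs and 57.9 and 86.5 in control BECs, a log2 change of -1.73 ± 0.44 (adjusted p = 0.0455), and it was 6.52-fold lower in mutant LECs (-2.70 ± 0.29, adjusted p = 0.000418). The control call for Insr was lost without control 1 (-2.21, adjusted p = 0.0957), control 2 (-1.24, 0.304), mutant 1 (-1.73, 0.0703), mutant 2 (-1.77, 0.0681) or mutant 3 (-1.77, 0.0724), and without cycling cells (-1.70, 0.0694). Igf1r fell in mutant LECs relative to BECs by 1.95 on the log2 scale (SE 0.38, adjusted p = 0.00843), and was not called in control mice (-1.38 ± 0.57, adjusted p = 0.192, and -0.58, adjusted p = 0.736 without cells with other types' markers). The ligands did not pass between the classes. Igf1 was not called in control (0.13 ± 0.39, adjusted p = 0.917) or mutant mice (-0.08 ± 0.24, adjusted p = 0.876), nor was Igf2 (-0.15 ± 0.44, adjusted p = 0.916, and 0.65 ± 0.29, adjusted p = 0.168), although Igf2 passed in mutant mice without mutant 5 (0.94, adjusted p = 0.0399).

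Igfbp4 changed sides. Its product binds both IGFs and is cut by the protease PAPPA, which releases them. Igfbp4 had 923.5 and 824 CPM in control LECs and 577.7, 577.9, 447.7, 315.1 and 463.4 in the LECs of mutants 1–5. In BECs it had 390.6 and 280.2 CPM in the controls and 1284.3, 840.4, 907.8, 684.6 and 881.9 in the mutants. LECs were above BECs in both controls and below them in all 5 mutants, and the groups of mice did not overlap in either class. Within control mice Igfbp4 was 2.69-fold higher in LECs (1.43 ± 0.16, adjusted p = 0.00141), and within mutant mice 1.95-fold lower (-0.96 ± 0.10, adjusted p = 0.000363). The mutant effect differed between LECs and BECs by -2.39 ± 0.19 on the log2 scale (adjusted p = 0.0111), where 0.191% of 21933 genes were called, and Igfbp4 was the 1 gene of the 10 that passed this test. Without control 1 that difference was -2.54 (adjusted p = 0.0622) and without control 2 it was -2.28 (adjusted p = 0.0682). It was called under each of the 8 alternatives that left out no mouse, with values for Igfbp4 among all alternatives of -2.54 to -2.28.

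**Figure D2:**
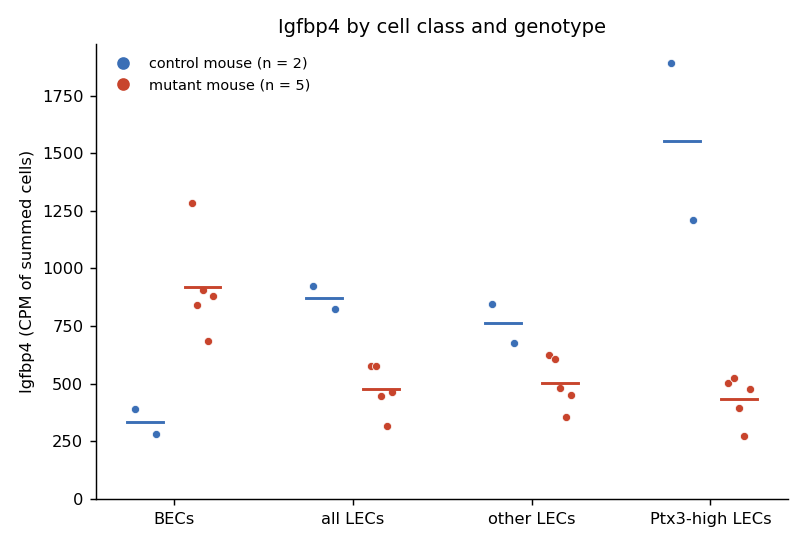
Igfbp4 in CPM of summed cells for BECs, all LECs, LECs under 100 CPM of Ptx3 (other LECs) and Ptx3-high LECs; points are mice, blue controls (n = 2) and red mutants (n = 5), and bars group means. In control mice the level climbs from 280.2–390.6 CPM in BECs to 1210–1893.3 in Ptx3-high LECs, while in mutant mice BECs (684.6–1284.3 CPM) lie above Ptx3-high LECs (274.9–525.7 CPM).

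Igfbp4 (ENSMUSG00000017493) lies on chromosome 11, from 99041244 to 99054392 on the plus strand of GRCm38 in GENCODE vM21. Its promoter is shown because its mutant effect was the 1 of the 10 called as different between LECs and BECs. The sequence is as RefSeq gives it for GRCm38.p6, 250 bases before and 50 after the start, at chr11:99040994-99041293 on the plus strand. It is written 5′ to 3′, with capitals for a TATA box (TATAAA or, on the other strand, TTTATA).
Igfbp4 promoter: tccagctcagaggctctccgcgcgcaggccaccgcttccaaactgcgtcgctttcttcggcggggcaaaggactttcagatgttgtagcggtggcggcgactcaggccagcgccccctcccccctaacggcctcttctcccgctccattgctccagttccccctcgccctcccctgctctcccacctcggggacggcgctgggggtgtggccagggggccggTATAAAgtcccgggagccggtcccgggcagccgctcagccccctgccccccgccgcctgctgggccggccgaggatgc
The TATAAA letters were found in 13.6% of 32851 mouse promoter windows of this length, on either strand, and in 2 of the 13 windows of 9 of the genes, those of Igfbp4 and Igfbp6. The GC box (GGGCGG or CCGCCC) was absent from the Igfbp4 window and present in 5 of the 13, in Igfbp2, Igfbp7, Igf2 and Igf1r, against 35.7% of all promoters. A FOXO motif, the binding sequence of transcription factors that PI3K signalling keeps out of the nucleus, was searched as GTAAACA or TGTTTAC and was in none of the 13 windows and in 3.65% of all promoters. No window held more than 1 kind of these motifs, although 4 windows held 2 or more GC boxes, and a match or its absence describes these letters in these windows only.

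In the LECs of mutant against control mice, 1 of the 10 genes was called, where 2.76% of 19758 genes were. Igf1 was 2.43-fold higher (1.28 ± 0.21, adjusted p = 0.0231), with 136, 80.9, 112.6, 110 and 116.5 CPM in mutants 1–5 and 47 and 47.2 in the controls. Every mutant was above both controls, and mutant 5, from the plate series of the controls, had 116.5 CPM. Igf2 went the other way, with 45.3, 44.2, 27.3, 35.5 and 21.3 CPM in mutants and 81.4 and 91.6 in controls (-1.27 ± 0.29, adjusted p = 0.057), and Igfbp4 was lower in 5 of 5 mutants (-0.83 ± 0.21, adjusted p = 0.0767). The mice of the groups did not overlap for 4 of the 10, Igf1, Igf2, Igfbp4 and Insr, or for 25.2% of all genes. The median log2 change of the 10 was -0.75, and that of all genes -0.01. The call of Igf1 was lost without control 1 (1.35, adjusted p = 0.0732), control 2 (1.24, 0.0682), mutant 3 (1.27, 0.0628) or mutant 4 (1.28, 0.0589), without cycling cells (1.57, adjusted p = 0.0656) and with plate series as a block (1.36, adjusted p = 0.113). Without mutant 5 Igf2 passed as well (-1.14, adjusted p = 0.0491). Without cells that carried other types' markers, Igf1 remained called at 1.5 (adjusted p = 0.0344) and Igfbp4 became called at -0.94 (adjusted p = 0.0309).

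In BECs, 2 of the 10 genes were called, where 2.12% of 19315 genes were. Igfbp4 was 2.86-fold higher in mutant BECs (1.52 ± 0.26, adjusted p = 0.0308), at the levels given above. Igf2 was 4.04-fold lower (-2.01 ± 0.41, adjusted p = 0.0493), with 40.3, 18.5, 14.5, 12.9 and 30.3 CPM in mutants 1–5 and 96.4 and 99.5 in controls. The mice did not overlap for 5 of the 10, Igf1, Igf2, Igfbp2, Igfbp4 and Igfbp6, and for 25% of all genes. Both calls were close to the threshold. Igfbp4 lost its call without control 1 (1.79, adjusted p = 0.0554), control 2 (1.29, 0.128), mutant 2 (1.54, 0.0666) or mutant 3 (1.51, 0.0736), and Igf2 lost it without any mouse but mutant 1, at log2 changes of -2.13 to -1.86 and adjusted p of 0.053 to 0.143. Without cycling cells both calls were lost (Igfbp4 1.59, adjusted p = 0.0522, and Igf2 -1.78, adjusted p = 0.106). With plate series as a block Igfbp4 had 1.43 (adjusted p = 0.238) and Igf2 -1.65 (adjusted p = 0.537), and mutant 5, of the controls' series, had 881.9 and 30.3 CPM.

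**Figure D3:**
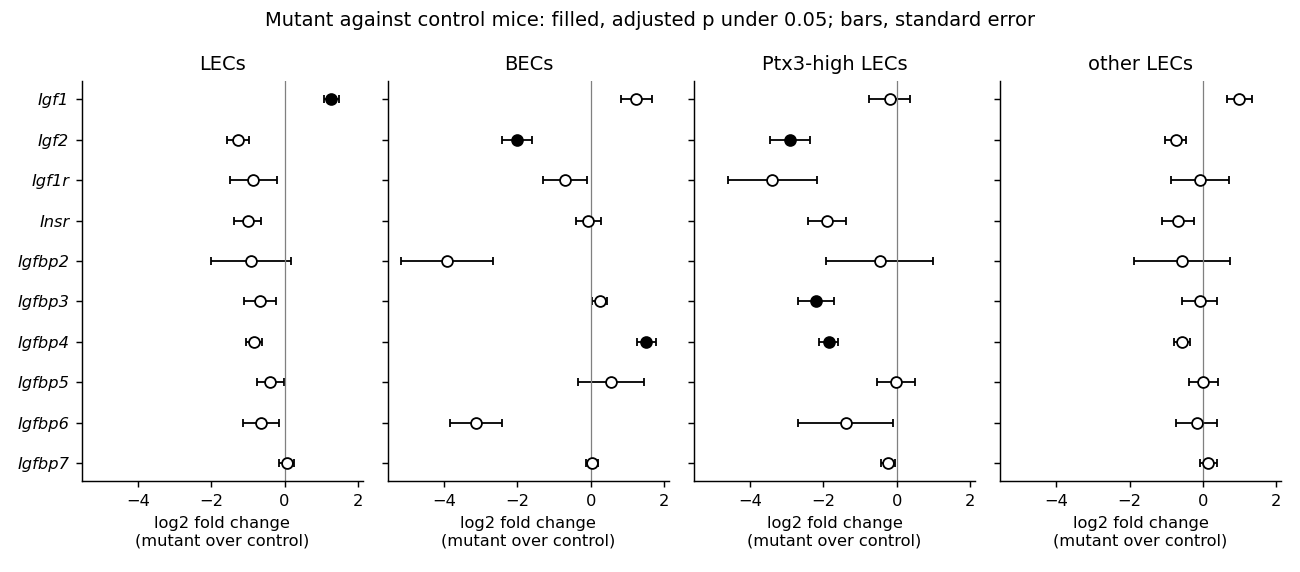
Log2 fold change of mutant over control mice for the 10 genes in LECs, BECs, Ptx3-high LECs and other LECs, with standard errors as bars; filled points had an adjusted p under 0.05 (edgeR). Igfbp4 lies at -0.83 in LECs, 1.52 in BECs and -1.86 in Ptx3-high LECs, and Igf2 lies below 0 in all 4 classes (-0.74 to -2.92).

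Several BEC results moved when cells holding other types' markers were left out. That step took out 71.7% and 45.2% of control BECs and 20.7–33% of mutant BECs, and the cause of the shifts was not tested. Igf1 had 77 CPM in control 1, 24.8 in control 2 and 90.6–134 in mutants (1.25 ± 0.41, adjusted p = 0.152). Without cells holding other types' markers, it had 15 and 24.8 CPM in the control BECs and 87.9–160.6 in the mutants, a log2 change of 2.60 that was called (adjusted p = 0.00774), and without control 1 it was called too (2.31, adjusted p = 0.0323). The 13 sorted cells outside both gates that led with fibroblast markers held 643.2 CPM of Igf1. Igf2 stayed lower without such cells (-2.59, adjusted p = 0.0217), at 184.3 and 97.6 CPM in controls and 13.8–36.9 in mutants. Igfbp6 lost its direction, and Igfbp2 dropped to low levels in both groups. Igfbp6 had 22.9 and 19.9 CPM in control BECs and 0.508–5.08 in mutant BECs (-3.13 ± 0.71, adjusted p = 0.0657, and -3.63, adjusted p = 0.0371 without mutant 5), but 2.2 and 0.405 against 0.156–4.47 without those cells (0.55, adjusted p = 0.838). Igfbp2 had 16.7 and 21.6 CPM against 0.0231–3.48 (-3.92 ± 1.26, adjusted p = 0.149), and 1.73 and 0.765 against 0–0.505 without them (-2.82, adjusted p = 0.217), so that its groups stayed apart and it was called in neither case. In control BECs Igfbp2 had 31 CPM in the cells with other types' markers and 1.12 in the rest, and Igfbp6 35.1 and 1.06. Igfbp4 in BECs had 459.2 and 233.9 CPM in controls and 658.3–1124.2 in mutants without those cells, and was not called (1.24, adjusted p = 0.0634).

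The remaining genes did not pass in LECs or BECs. Igfbp7 had the smallest log2 changes of the binding proteins, at 0.06 ± 0.21 in LECs (adjusted p = 0.896) and 0.03 ± 0.17 in BECs (adjusted p = 0.931). Igfbp3 had -0.67 ± 0.43 in LECs and 0.25 ± 0.20 in BECs, and Igfbp5 -0.39 ± 0.37 and 0.56 ± 0.90. Insr was lower in 5 of 5 mutants in LECs, at 5.27–13.4 CPM against 18.7 and 23.4 (-1.0 ± 0.37, adjusted p = 0.179), and had -0.06 ± 0.35 in BECs. Igf1r varied most between the controls, with 60.2 and 9.63 CPM in their BECs and 12.6–28.8 in mutant BECs (-0.69 ± 0.60, adjusted p = 0.557). The 6 binding proteins summed to 2089.5 ± 334.4 CPM (SD, n = 2) in control and 1459.8 ± 195 (n = 5) in mutant LECs, and to 3231.1 ± 453.7 and 3821.6 ± 570.4 in BECs. In LECs these sums came mostly from Igfbp4, Igfbp5 and Igfbp7, and in BECs from Igfbp7 (means of 2309.1 and 2265.2 CPM), Igfbp3 (507.9 and 578.7) and Igfbp4 (335.4 and 919.8).

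The share of cells with a read of each gene was taken after thinning every cell to 50000 reads. Igf1 was read in 22.1% ± 1.09 (SD, n = 2) of control LECs and 48% ± 7.87 (n = 5) of mutant LECs, and in 18% ± 5.66 and 40.8% ± 4.19 of BECs. For Igf2 the shares were 41.3% ± 5.02 and 23.8% ± 4.69 in LECs, and 31.6% ± 8.67 and 13.9% ± 4.92 in BECs. The groups did not overlap in these 4 comparisons, and each had an exact two-sided permutation p = 0.0952, the smallest that 21 splits of 7 mice allow, with adjusted p = 0.238 in LECs and 0.317 in BECs, so no share could pass. Igfbp7 was read in 94% ± 5.47 (n = 5) of mutant LECs and in 100% of control BECs. Igfbp2 and Igf1r were read in few cells, at 0.549–10.3% of LECs for Igfbp2 and 2.67–10.9% for Igf1r. Expression was uneven between cells: the 10% of LECs with the highest levels held 61% of the Igf1 level, 58.3% of that of Igfbp5, 92.6% of that of Igfbp3 and 36.7% of that of Igfbp7, and the corresponding 10% of BECs held 96.2% of the Igf2 level.

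Ptx3-high LECs were those with at least 100 CPM of Ptx3, a secreted pattern recognition protein. They numbered 12 and 44 in the controls and 62, 62, 126, 76 and 162 in mutants 1–5, or 6.56% and 25.1% of control and 33.2–44.1% of mutant LECs. Their sums held 4098711 reads in control 1, 16832792 in control 2 and 19426292–94444356 in mutants. Control 1 thus contributed 12 cells, and single cells weigh there: 1 cell held 70.3% of its Igf1 reads, 71.2% of its Igfbp3 reads and 18.5% of its Igfbp4 reads. The cell cycle genes summed to 75.1 and 113.5 CPM in control and 614.8–1319.9 in mutant Ptx3-high LECs.

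Within control mice 1 of the 10 genes separated Ptx3-high from other LECs, where 0.162% of 19764 genes were called. Igfbp4 had 1893.3 and 1210 CPM in the Ptx3-high LECs of the controls and 846.8 and 677.7 in their other LECs, a 2.06-fold difference (1.05 ± 0.14, adjusted p = 0.0492), where the median log2 change over all genes was -0.25. This call was lost without control 1 (0.85, adjusted p = 0.171), mutant 1 (1.07, 0.103), mutant 2 (1.06, 0.0987), mutant 3 (1.05, 0.123), mutant 4 (1.06, 0.102) or mutant 5 (1.08, 0.0505), and without cycling cells (1.15, 0.168). Without control 2, Igfbp5 had -3.58 and Igf1 3.71, which rests on the 12 cells of control 1. Calls over all genes rose in that fit as well. Within mutant mice another gene was called, again 1 of 10, where 2.52% were. Igfbp5 had 272.2, 121.2, 293.2, 151.4 and 118.7 CPM in the Ptx3-high and 737.7, 818.6, 751.4, 1108.5 and 371.9 in the other LECs of mutants 1–5, lower in 5 of 5 mice (-2.0 ± 0.41, adjusted p = 0.047). Igfbp5 lost its call without any 1 of the mutants, at log2 changes of -2.17 to -1.77 and adjusted p of 0.103 to 0.169, and without cells with other types' markers (-2.35, adjusted p = 0.151) or cycling cells (-1.77, adjusted p = 0.0688).

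Other genes pointed the same way in every mutant without passing. Igfbp3 was lower in the Ptx3-high LECs of 5 of 5 mutants (-1.79 ± 0.40, adjusted p = 0.0605) and passed without control 1 or control 2, whose removal changes the estimate of the spread (-1.79, adjusted p = 0.0453 and 0.0476). Igf1 was higher in 5 of 5 mutants, with 195.8, 133.5, 172.7, 172.9 and 166.5 CPM in Ptx3-high and 100.1, 52.6, 75.1, 49.7 and 69.2 in other LECs (1.33 ± 0.41, adjusted p = 0.178, and 0.00535 or 0.00495 without control 1 or 2). The share of cells with an Igf1 read was higher in Ptx3-high LECs in 7 of 7 mice, at 27.3–33.3% against 20.5–21.4% in controls and 53.2–71% against 31.1–46.3% in mutants. Igf2 was lower in 5 of 5 mutants (-1.30 ± 0.33, adjusted p = 0.0928) and higher in both controls (0.97 ± 0.50, adjusted p = 0.408). The Ptx3-high difference of Igfbp4 was 1.05 in controls and -0.21 ± 0.09 in mutants (adjusted p = 0.329).

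The Ptx3-high effect was compared between the genotypes, and 0 of the 10 genes passed, where 0.0202% of genes did, with 4 of the 10 at an unadjusted p under 0.05 and 3 called by DESeq2. Igfbp4 came closest, at -1.25 ± 0.16 (adjusted p = 0.0618), then Igf2 at -2.26 ± 0.60 (adjusted p = 0.216). Without control 2, both Igfbp4 (-1.43, adjusted p = 0.00846) and Igf1 (-2.38, adjusted p = 0.00748) passed, and without cells with other types' markers Igfbp4 passed (-1.26, adjusted p = 0.0487).

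**Figure D4:**
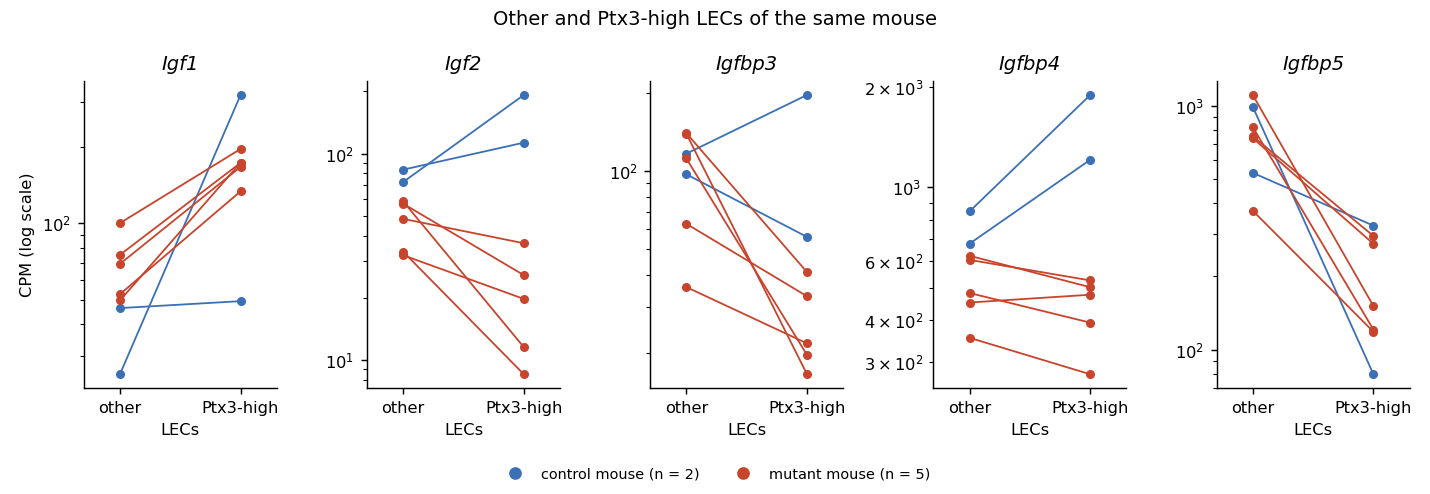
CPM (log scale) of Igf1, Igf2, Igfbp3, Igfbp4 and Igfbp5 in the other and the Ptx3-high LECs of each mouse, joined by a line; blue lines are the 2 controls and red lines the 5 mutants. Igfbp4 climbs in both controls (846.8 to 1893.3 and 677.7 to 1210 CPM) and is lower in Ptx3-high LECs in 4 of 5 mutants, Igf2 climbs in both controls and drops in 5 of 5 mutants, and Igf1 climbs in 7 of 7 mice.

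Among Ptx3-high LECs of mutant against control mice, 3 of the 10 genes were called, all lower in mutants, where 5.1% of 16727 genes were called. Igfbp4 was 3.63-fold lower (-1.86 ± 0.27, adjusted p = 0.0119), with 501.6, 525.7, 392.7, 274.9 and 476.2 CPM in mutants 1–5 and 1893.3 and 1210 in controls. Igf2 was 7.57-fold lower (-2.92 ± 0.54, adjusted p = 0.0224), with 25.7, 36.7, 19.7, 11.5 and 8.49 CPM against 192.3 and 112.9. Igfbp3 was 4.64-fold lower (-2.21 ± 0.49, adjusted p = 0.0388), with 16.5, 19.6, 40.9, 33 and 21.7 CPM against 55.9 and 197.2. The mice did not overlap for 5 of the 10, these 3 and Igfbp6 and Insr, and for 28.8% of all genes. For Igfbp3, Igfbp6 and Insr the groups overlapped once the highest cell of each control was left out. The mutants were kept whole there, so whether the separation rested on single cells was not tested. Without the highest cell of each control, Igfbp3 had 17.6 and 134.5 CPM in the controls (mutants 16.5–40.9). Igfbp6 then had 1.33 and 4.17 CPM in the controls (mutants 0–8.03), and Insr 15.7 and 2.48 (mutants 4.65–8.71). The median of the 10 was -1.62 and that of all genes 0.10. Igfbp4 remained called when any 1 mouse was left out, and of the 12 other alternatives it lost its call with plate series as a block (-1.73, adjusted p = 0.243). Igf2 lost its call without control 1 (-2.40, adjusted p = 0.0705), mutant 3 (-2.92, 0.0591) or mutant 4 (-2.83, 0.0513), without cycling cells (-2.58, adjusted p = 0.089) and with plate series as a block (-4.19, adjusted p = 0.15). In mutant 5, of the plate series of the controls, each of the 3 genes was below both controls when all cells were kept. Igfbp3 of mutant 5 with all its cells (21.7 CPM) was above control 1 without its highest cell (17.6 CPM).

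Igfbp3 in this class rested on control 2. Without it the change was -1.15 (adjusted p = 0.15), and 1148 of its 3319 reads came from 1 of 44 cells. The call was also lost without mutants 1, 2, 3, 4 or 5, at log2 changes of -2.44 to -2.12 and adjusted p of 0.0552 to 0.0867, with cells thinned (-1.54, adjusted p = 0.0833) and without cycling cells (-2.06, adjusted p = 0.114). Igf1 in this class had 319.1 and 49.4 CPM in the controls and 133.5–195.8 in mutants (-0.19 ± 0.56, adjusted p = 0.861). Its direction followed the control that was kept: 1.85 without control 1 and -1.0 without control 2. Without its highest cell, control 1 had 103.6 CPM of Igf1. Insr had 30 and 22.2 CPM in the controls and 4.65–8.71 in mutants (-1.90 ± 0.51, adjusted p = 0.0653). Insr had -2.15 without control 2, in which 332 of 373 Insr reads came from 1 of 44 cells. It had -0.81 (adjusted p = 0.648) without cells with other types' markers. Igf1r had -3.39 ± 1.22 (adjusted p = 0.138) and -4.26 without control 2, and it passed without mutant 1 (-5.07, adjusted p = 0.0397). Calls over all genes also rose without control 2 in this class. The binding proteins summed to 2319.5 ± 153.2 CPM (SD, n = 2) in control and 1014.5 ± 163 (n = 5) in mutant Ptx3-high LECs, and to 2017.6 ± 424.8 and 1772 ± 238.4 in other LECs.

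In the other LECs 0 of the 10 genes were called by edgeR or by DESeq2, with 3 at an unadjusted p under 0.05, where 0.0536% of 18665 genes were called. Those 3 were Igf1 (0.99 ± 0.34, adjusted p = 0.264), Igf2 (-0.74 ± 0.28, adjusted p = 0.307) and Igfbp4 (-0.58 ± 0.22, adjusted p = 0.307). Every mutant still lay on 1 side of both controls for these genes and for Insr, 4 of 10, against 19% of all genes. Whether the mutant effect differed between the Ptx3-high and the other LECs is the test of the preceding comparison between genotypes, in which none of the 10 passed.

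Within each class the genes also varied between vessel types, shown by grouping every cell by the marker list in which it scored highest. Such groups are ranges of a score and not fixed types: 78–97 cells of each LEC group and 23–36 of each BEC group lay within 0.25 log2 units of the next list. Igfbp5 was highest in the cells led by collecting vessel markers in 7 of 7 mice, at a median over mice of 841.7 CPM against 540.5 in valve-led and 375.6 in capillary-led LECs. Igfbp4 was highest in capillary-led LECs in 5 of 7 mice (median 684 CPM). Among BECs, Igfbp3 was highest in arterial-led cells in 7 of 7 mice (934.6 CPM, against 443.5 in venous-led and 419.1 in capillary-led cells), and so was Igf2 (94.1 CPM, against 8.33 and 29.8). These medians pool both genotypes. Control and mutant means of Igfbp3 were 59.2 and 537.5 CPM in venous-led, 916.2 and 1009.3 in arterial-led and 387.8 and 462.2 in capillary-led cells. Insr was highest in venous-led cells in 7 of 7 mice (90.9 CPM) and Igf1 in 6 of 7 (142.7 CPM, against 24.7 in arterial-led cells). Igfbp4 was higher in mutant than control means in all 3 BEC groups, at 1228.4 against 728.8 CPM in venous-led, 816.1 against 637.2 in arterial-led and 317.8 against 87.7 in capillary-led cells. Igf2 was lower in all 3, at 6.3 against 72.5, 65 against 149.2 and 29.8 against 66.5 CPM, and in all 3 LEC groups. These are descriptions without a test.

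Of 24 further IGF pathway genes, 21 could be tested between LECs and BECs, where 10.4% of all genes were called in control and 19.2% in mutant mice. Insrr, Igfbp1 and Igfbpl1 had too few reads. In control mice 2 were called: Shc1, an adaptor of the receptors, was higher in LECs (1.83 ± 0.15, adjusted p = 0.000554) and Htra1, a secreted protease that can cut IGF-binding proteins, was lower (-2.35 ± 0.20, adjusted p = 0.000567). In mutant mice 9 were called, 3 higher in LECs and 6 lower. The higher ones were H19, the imprinted noncoding RNA next to Igf2 (6.31 ± 1.35, adjusted p = 0.0133), Igf2bp3, an mRNA-binding protein (1.61 ± 0.36, adjusted p = 0.0164), and Shc1 (1.38 ± 0.10, adjusted p = 5.82e-05). The lower ones with the largest changes were Htra1 (-3.18 ± 0.13), Stc2, an inhibitor of PAPPA (-2.79 ± 0.52), Pappa itself (-1.25 ± 0.34, in 4 of 5 mice) and Igf2r, the receptor that clears IGF2 (-0.88 ± 0.22), with adjusted p of 9.80e-06, 0.00677, 0.0367 and 0.025. The remaining lower ones were Sos1 (-0.63 ± 0.17, adjusted p = 0.0338) and Grb10 (-0.36 ± 0.09, adjusted p = 0.0266). H19 had 6.49–39.6 CPM in mutant LECs and 0.0635–17.6 in mutant BECs, highest in mutant 1 in both.

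Between genotypes 0 of 20 tested pathway genes were called by edgeR in LECs, with 5 at an unadjusted p under 0.05 and 2 called by DESeq2, and 0 of 20 in BECs, with 3 and 1. Over all genes edgeR called 2.76% in LECs, 2.12% in BECs, 5.1% in Ptx3-high LECs and 0.0536% in other LECs. In Ptx3-high LECs 1 of 17 was called, Enpp1, which inhibits the insulin receptor (-5.38 ± 1.21, adjusted p = 0.0406), but control 1 had 35.1 CPM, control 2 had 0.535 and the mutants 0.238–0.867, so that the groups of mice overlapped. In other LECs 0 of 18 were called, with 2 at an unadjusted p under 0.05 and 1 called by DESeq2. Between Ptx3-high and other LECs 0 of 20 were called in control mice, with 3 and 2, and 0 of 20 in mutant mice, with 4 and 3. The difference of the mutant effect between LECs and BECs was called for 0 of 21, with 4 and 2, and that of the Ptx3-high effect for 0 of 20, with 2 and 1. Of all genes, 0.162% and 2.52% were called between Ptx3-high and other LECs of control and mutant mice. For these differences the shares were 0.191% and 0.0202%, in that order.

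Igf2 shares 98 exon bases (1.71%) with Igf2os on the other strand, and Igfbp7 85 bases (7.03%) with Polr2b. Whether the authors counted by strand is not given in the sources used here, so reads in these stretches cannot be told apart. Igf2os had 6.32 ± 0.873 CPM (SD, n = 2) in control and 2.26 ± 0.669 (n = 5) in mutant LECs. Gm49394, on the same strand, covers 62.8% of the Igf2 exon bases and was not in the count tables.

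The genes whose levels followed each member most closely were sought over the 14 sums of Ptx3-high and other LECs, among the 6181 genes that averaged 5 or more in log2 CPM, as Pearson correlations of log2 CPM. Both sums of a mouse share its library, so these are descriptions. Igfbp5 lay closest to Gm26776 (0.963), Ccdc3 (0.961) and Cyb561 (0.959), Igfbp4 to Sigirr (0.941), Ube2r2 (0.902) and Rps4x (0.891), and Insr to Il16 (0.938), Stard5 (0.93) and Depp1 (0.926). Igf2 lay closest to Gm26735 (0.928), Reln (0.928) and Syne1 (0.914), of which Reln is a marker of LECs. The 3 closest to Igf1, Pcdhgc5 (0.929), Pcdhga5 (0.925) and Pcdhgb4 (0.925), are gamma-protocadherins, which share exons and so are not independent of each other. Igfbp3 lay closest to Ypel3 (0.898), Tpst1 (0.896) and Stxbp6 (0.882), Igfbp6 to Ank2 (0.869), Igfbp7 to Mark3 (0.878), Igf1r to Tef (0.871) and Igfbp2 to Hsf1 (0.792).

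The members lie on 7 chromosomes of GRCm38, with positions from GENCODE vM21. Igfbp2 (ENSMUSG00000039323, 72824503–72852474, plus strand) and Igfbp5 (ENSMUSG00000026185, 72857932–72874884, minus strand) are neighbours on chromosome 1, yet Igfbp5 differed between LECs and BECs and Igfbp2 was not called. Igfbp3 (ENSMUSG00000020427) is on chromosome 11 like Igfbp4, at 7206086–7213923, Igfbp6 (ENSMUSG00000023046) on chromosome 15 at 102144362–102149511 and Igfbp7 (ENSMUSG00000036256) on chromosome 5 at 77349240–77408041. Igf1 (ENSMUSG00000020053) is on chromosome 10 at 87858265–87937042 and Igf2 (ENSMUSG00000048583) on chromosome 7 at 142650766–142666816. Igf1r (ENSMUSG00000005533) is also on chromosome 7, at 67952827–68233668, and Insr (ENSMUSG00000005534) on chromosome 8 at 3122061–3279617. Reads of each were counted over its annotated exons.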

How the data were processed

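Per the labels and the study's methods, reads of each cell were aligned by the authors with TopHat2 2.1.1 to GRCm38 with the transgene sequence added, duplicates were removed with SAMtools 0.1.18 and reads were counted per gene with featureCounts. The annotation version and the strand setting are not given in the sources used here. The deposited values are raw counts for each gene and well, not normalised, with no molecular barcodes. The study also used R 3.5.1 and Seurat 3.1.1.

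From these counts, wells with at least 50000 reads, 200 genes and at most 10% mitochondrial reads were kept. Spike-ins (92 rows) were left out of totals, and symbols came from GENCODE vM21 for 46005 of 46517 genes. Plate totals ran from 99969650 to 151812175 reads, and 0 cells shared identical counts. No doublet caller was run. Counts were summed per mouse and class and tested with the quasi-likelihood test of edgeR 4.0.16 in R 4.3.3 (TMM factors 0.938–1.07, Benjamini-Hochberg adjustment over all genes, called at an adjusted p under 0.05). LECs and BECs, or Ptx3-high and other LECs, of a mouse were compared with the mouse as a block. Each mouse is a replicate, and cells are not. Shares of cells were compared by a two-sided exact permutation test, with adjustment over 10 genes. Intervals and shares cover these libraries only, and low levels rest on few reads. The scripts were tested on simulated data. All 10 members are named; pathway genes are named where called. Members and lists were chosen with earlier results of these data known.

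Alternatives were DESeq2 1.42.0, its size factors, no filter on low counts, each mouse left out, a stricter gate (ratio 4), no cells with other types' markers, no cycling cells, thinned cells, first plates only, other Ptx3 limits, and blocks for replicate number, plate series and sex.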

Additional observations from a re-analysis of the deposited data

Results flagged for a closer look

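In 60 groups of 5 mutant mice, 4 held a mouse far from the rest by Dixon's criterion, and chance alone gives about 1 in 20 such groups. Igfbp5 was lowest in the LECs of mutant 5, at 248.9 CPM against 562.9–639.6 in the other mutants. Igfbp5 was highest in the BECs of mutant 1, at 160 CPM against 10.4–36.5. Igf1r was highest in the Ptx3-high LECs of mutant 1, at 15.9 CPM against 1.11–1.73, and mutant 1 also had the largest share of LECs with an Igf1r read, 7.61% against 2.67–4.09%.

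The mutant effect on Igfbp4 differed between LECs and BECs by -2.39 on the log2 scale in a test of the difference itself (edgeR, adjusted p = 0.0111), with every mutant below both controls in LECs and above both in BECs.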

How the results depend on the processing

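Of 1709 recomputed values of the 10 genes, 1574 stayed on the same side of the threshold, 109 of them with the other sign and called in neither setting. A further 90 lost a call, 44 gained one and 1 reversed: Igf1 in Ptx3-high LECs of mutant against control mice was 1.85 without control 1, and ran from -1.0 to 1.85 with 1 mouse left out. Of 180 share differences, 12 changed sign.

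Numbers of the 10 genes called moved as follows. Between LECs and BECs of controls (5), 3 were called without cycling cells and 3 without the filter; for the difference in the mutant effect (1), DESeq2 called 2. In LECs (1), DESeq2 called 3, the sex covariate 2, removal of cells with other types' markers 2, and removal of cycling cells, the plate series block and the replicate block 0. In BECs (2), DESeq2 called 5, first plates, no filter, the sex covariate and the strict gate 1 each, and no cycling cells, the plate series block and the replicate block 0. Between Ptx3-high and other LECs of controls (1), DESeq2 called 3, and first plates, no cycling cells, the strict gate and other LECs without a Ptx3 read 0. In mutants (1), DESeq2 called 5, thinned cells 3, first plates 2, and the 300 CPM limit, no cells of other types and the strict gate 0. For the genotype difference (0), DESeq2 called 3, and the 300 CPM limit and no cells of other types 1. In Ptx3-high LECs (3), no cycling cells and the replicate block left 1 and the plate series block 0. The cause was not tested. The ranges that follow include the fits without control 1 or control 2, which leave 1 control mouse. Without control 2, calls over all genes rose in each comparison of Ptx3-high LECs. With 1 mouse left out, the numbers ran from 2 to 5, 6 to 8 (LECs against BECs of controls, of mutants), 0 to 1 (their difference), 0 to 2 (LECs), 0 to 2 (BECs), 0 to 3, 0 to 3, 0 to 2 (Ptx3-high against other LECs of controls, of mutants, their difference), 1 to 5 (Ptx3-high LECs) and 0 to 0 (other LECs).

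Deviations of same-numbered mice from their group means correlated at -0.0412 and 0.036. With 2 controls these deviations mirror each other, so the correlations cannot decide whether the replicate numbers pair the mice. With the replicate block, calls over all genes went from 546 to 4 in LECs, 410 to 0 in BECs, 853 to 116 in Ptx3-high LECs and 10 to 0 in other LECs. With the plate series block they were 160, 37, 23 and 1, and without cycling cells 46, 216, 102 and 0. DESeq2 called 2472, 2238, 2925 and 1185 there, 4313 (main 2277) between LECs and BECs of controls, 1240 (42) for their difference, and 2071 (32), 1811 (498) and 1345 (4) between Ptx3-high and other LECs of controls, of mutants and for the difference. For these 3 the 300 CPM limit gave 397, 249 and 88, no cycling cells 0, 267 and 2, and other LECs without a Ptx3 read 0, 230 and 0. Without cells of other types the counts were 110 for the LEC and BEC difference, 733 in BECs, 55 and 34 for the Ptx3-high effect in controls and its difference, and 17 in other LECs. Igfbp2 and Igf1r were read in few cells, and control 1 held only 12 Ptx3-high LECs. The part of depth in their values was not tested.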

Other observations

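Among the sorted cells outside both gates, 13 led with fibroblast markers, 11 of them from control mice. Summed, they held 643.2 CPM of Igf1, 340.5 of Igf2, 456.6 of Igfbp2, 423.7 of Igfbp6 and 878.7 of Igfbp5. The 26 cells led by mural markers held 1388.1 CPM of Igfbp5, 1121.9 of Igfbp4 and 2372.8 of Igfbp7, but 13.5 of Igf1 and 0.636 of Igfbp2. The 44 cells led by keratinocyte markers held 346 CPM of Igfbp2, 209 of Igfbp3 and 2.1 of Igf1. These cells were pooled over mice and were not tested.

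Mutants 3 and 5 were each sorted onto a pair of plates. Igfbp4 in BECs had 920.2 and 891.8 CPM on the plates of mutant 3 and 799.2 and 977.1 on those of mutant 5. Igf1 in LECs had 120.6 and 103.3 CPM in mutant 3 and 148.5 and 87.1 in mutant 5, and Igf1r in BECs 6.88 and 27.5 in mutant 3.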
